A study of Mus musculus with 6 samples.

Results

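IAP (intracisternal A particle) elements are endogenous retroviruses of the mouse that belong to the ERVK family, and the regions described here are H3K9me3 peaks of Bergmann glia (BG) that lie on them. A peak was taken as an IAP peak when the authors' annotation of its centre named a repeat of the ERVK family whose name begins with IAP. By this rule, 1451 of the 34673 peaks in the deposited list were IAP peaks, which is 4.18% of the list (95% Wilson interval 3.98 to 4.40%) and 32.2% of its 4507 ERVK peaks (30.8 to 33.6%). The other 3056 ERVK peaks and the 30166 peaks outside ERVK were used for comparison. The rule used the name of the repeat and neither the score nor the position of the peak.

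The series holds H3K9me3 ChIP-seq of BG, the radial astroglia of the cerebellum, from C57BL/6 mice at postnatal day 10. There were 2 libraries from mutant BG, in which mGFAP-Cre deleted floxed Setdb1, and 2 libraries from WT BG. The other 2 were control libraries that the labels call both input and IgG. At this age the study sorted BG by the GFP of a Nestin reporter (Nes-GFP), which its mutant mice carried too. For ChIP it refers back to its isolation of BG. The mGFAP-Cre driver also acts in other neural cells of the cerebellum, such as granule neuron precursors, and the sources used here do not state if libraries of a genotype came from separate animals. The study used mice of either sex, and the sex of the animals of each genotype is not known here. Values for chromosomes X and Y cannot be separated from it. The deposited list holds the peaks that the authors found in WT BG and not in mutant BG, with the libraries of each genotype merged. It has no value for mutant BG, for control libraries or for a single library, so each value below describes the WT signal at peaks that were already chosen as absent from mutant BG, and no spread between replicates can be given. Intervals are 95% Wilson intervals for shares and 95% order-statistic intervals for medians, and the limit given for a count of 0 is that of 3 counts. They cover counting error only, and copies of 1 repeat share their sequence and are not independent of each other.

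An intact IAP element has a long terminal repeat (LTR) at each end, a primer binding site next to the 5′ LTR that pairs with a phenylalanine tRNA, and an internal region with the gag, pro and pol genes. IAP elements are still able to move in the mouse genome, and insertions near genes can change their expression. In mouse embryonic cells they are silenced by KRAB zinc finger proteins and TRIM28, which recruit SETDB1, the methyltransferase that places H3K9me3, together with DNA methylation of their CpG sites.

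The sequences of 6 IAP peaks are given first, because the IAP names in the list cover elements of very different sequence. Each is the central 120 bases of the peak with the highest score among the peaks of 1 name, for the 6 names with most peaks, read from GRCm38 (the same build as mm10). They run 5′ to 3′ along the element where its strand could be found (IAPEz-int, IAPLTR3-int and IAPLTR2a2_Mm) and along the plus strand of the genome otherwise. Capitals mark CpG sites.
IAPEz-int, chr13:88775062-88775181, minus strand: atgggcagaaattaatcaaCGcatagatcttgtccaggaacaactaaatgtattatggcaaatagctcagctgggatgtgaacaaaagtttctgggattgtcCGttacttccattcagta
IAPEy-int, chr6:81868570-81868689, plus strand: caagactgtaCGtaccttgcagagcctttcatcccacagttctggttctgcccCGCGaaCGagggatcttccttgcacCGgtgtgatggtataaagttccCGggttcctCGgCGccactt
IAPEY3-int, chr16:17446029-17446148, plus strand: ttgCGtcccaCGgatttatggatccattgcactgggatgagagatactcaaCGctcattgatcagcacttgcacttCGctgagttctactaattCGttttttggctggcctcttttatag
IAPEY_LTR, chr8:69643776-69643895, plus strand: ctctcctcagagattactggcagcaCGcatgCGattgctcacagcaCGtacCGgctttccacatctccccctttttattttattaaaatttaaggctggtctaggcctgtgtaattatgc
IAPLTR3-int, chr13:3331911-3332030, minus strand: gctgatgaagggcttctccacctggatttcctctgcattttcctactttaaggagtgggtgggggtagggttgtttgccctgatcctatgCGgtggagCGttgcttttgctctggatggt
IAPLTR2a2_Mm, chr16:61312811-61312930, minus strand: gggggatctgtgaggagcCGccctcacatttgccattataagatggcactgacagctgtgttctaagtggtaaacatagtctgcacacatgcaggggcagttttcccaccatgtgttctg
The 6 stretches hold 2, 8, 5, 4, 2 and 1 CpG sites in the order printed.

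The IAP peaks carried 25 repeat names. Internal regions made up 1034 of them (71.3%, 68.9 to 73.5%) and LTRs the other 417. IAPEz-int, the internal region of the youngest IAP elements, was the name of 696 peaks (48.0%, 45.4 to 50.5%). It was followed by IAPEy-int with 106 peaks, IAPEY3-int with 82, IAPEY_LTR with 67, IAPLTR3-int with 62 and IAPLTR2a2_Mm with 55. The sequence at the peaks was also compared with 1 full-length IAP copy of the reference genome. As this copy was chosen among copies that hold an IAP peak, the comparison is no independent check of the label. Of the 1446 IAP peaks on chromosomes 1 to 19, X and Y, 1023 (70.7%, 68.3 to 73.0%) had their centre in a blastn match to this copy, against 99 of 3047 other ERVK peaks (3.25%) and 7 of 30107 peaks not on ERVK (0.0233%). The match held 691 of the 696 IAPEz-int peaks, with a median identity of 95.2%, and none of the IAPEY_LTR or IAPEY2_LTR peaks. The other 5 IAP peaks lay on unplaced scaffolds and entered no sequence value.

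The deposited score of IAP peaks was higher than that of the other peaks. The sources used here do not state its scale, but all 29880 scores under 10 lay within 0.01 of a whole multiple of 0.321, so that only 18 different values occur there and many peaks are tied. The median score was 8.66 (8.34 to 8.99) at IAP peaks, which is 27 such steps, against 7.38 (7.38 to 7.38), or 23 steps, at other ERVK peaks and 6.74 (6.74 to 7.06), or 21 steps, at peaks not on ERVK. Scores of IAP peaks ran from 4.81 to 47.5. The highest score of the list, 784.3, was not on ERVK, and the highest of the other ERVK peaks was 527. Of the IAP peaks, 711 (49.0%, 46.4 to 51.6%) had a score of at least 8.99, the boundary of the top 20% of the list, and are called high-scoring below, against 934 of the other ERVK peaks (30.6%, 28.95 to 32.2%). Because of ties this boundary takes in 7651 peaks, or 22.1% of the whole list. IAP peaks made up 1.998% (1.67 to 2.39%) of the peaks with a score up to 5.78 and 9.29% (8.66 to 9.96%) of those at 8.99 or more. They made up 16.4% (13.6 to 19.7%) of the 554 peaks with a score of at least 20 and 11.2% (7.27 to 16.8%) of the 170 with a score of at least 30.

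**Figure D1:**
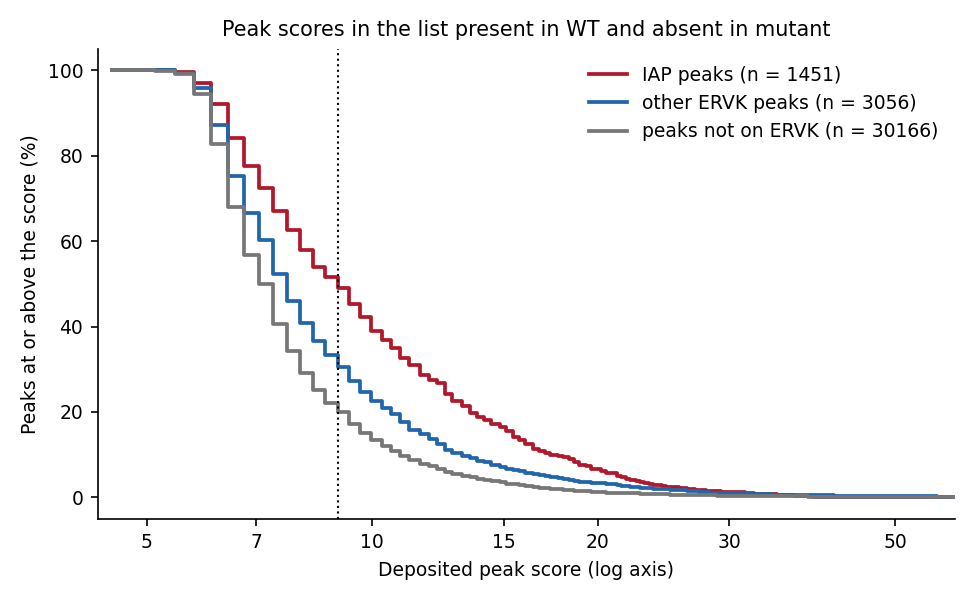
Share of peaks (%, y axis) at or above each deposited score (x axis, log scale), for 1451 IAP peaks, 3056 other ERVK peaks and 30166 peaks not on ERVK. The dotted line is the boundary of the top 20% of the list, a score of 8.99, which 49.0% of IAP peaks and 30.6% of other ERVK peaks reached.

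Width and score moved together. Most peaks had the caller's width of 500 bp, and 583 IAP peaks (40.2%, 37.7 to 42.7%) were wider, up to 3055 bp, against 878 of the other ERVK peaks (28.7%, 27.2 to 30.4%) and 21.4% of the peaks not on ERVK. Among peaks of 500 bp, the median score was 7.06 at 868 IAP peaks, 6.74 at 2178 other ERVK peaks and 6.42 at all peaks other than IAP. Among wider peaks, it was 12.5 (12.2 to 13.2) at IAP peaks, 10.6 (10.6 to 10.9) at other ERVK peaks and 9.63 (9.63 to 9.95) at all peaks other than IAP. The order of the sets was thus the same at both widths, while 25.5% (22.7 to 28.5%) of the IAP peaks of 500 bp and 84.0% (80.9 to 86.8%) of the wider ones were high-scoring.

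RLTR10 and MMERVK10C, other ERVK elements with the same primer binding site, came close to IAP in score. Their 704 peaks had a median of 8.34 (8.02 to 8.99), and 46.3% (42.7 to 50.0%) were high-scoring. The intervals of both values overlap those of all IAP peaks, which include the peaks of chromosome Y. On the autosomes alone, IAP peaks had a median of 9.31 (8.99 to 9.63), and 55.4% (52.4 to 58.3%) were high-scoring. Autosome values of RLTR10 and MMERVK10C were not computed, and a difference in score between IAP and these elements was not tested.

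The IAP names differed from each other in score. Among the 14 names with 20 or more peaks, LTRs of the IAPLTR1 group stood at the top, with a median of 15.1 (12.2 to 16) at 27 IAPLTR1a_Mm peaks and 10.8 (9.63 to 12.8) at 36 IAPLTR1_Mm peaks. Of the IAPLTR1a_Mm peaks, 25 of 27 (92.6%) were high-scoring. These LTRs belong to the same young elements as IAPEz-int, whose 696 peaks had a median of 9.31 (8.99 to 9.63) and ranged from 4.81 to 47.5. IAPLTR2_Mm followed with 9.47 (8.02 to 10.6) and IAPEY2_LTR with 9.31 (8.66 to 9.95). The lowest medians among these names were 6.74 at IAPLTR3-int (6.42 to 7.06) and at IAPEY_LTR (6.42 to 7.70), 6.90 at IAPEy-int (6.42 to 8.02) and 7.06 at IAPLTR2a2_Mm (6.74 to 8.02). Of the names with fewer peaks, IAPLTR2a reached 11.9 (7.38 to 13.2) at 15 peaks. Internal regions and LTRs had the same median, 8.66 (8.34 to 9.31 and 8.02 to 8.99).

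**Figure D2:**
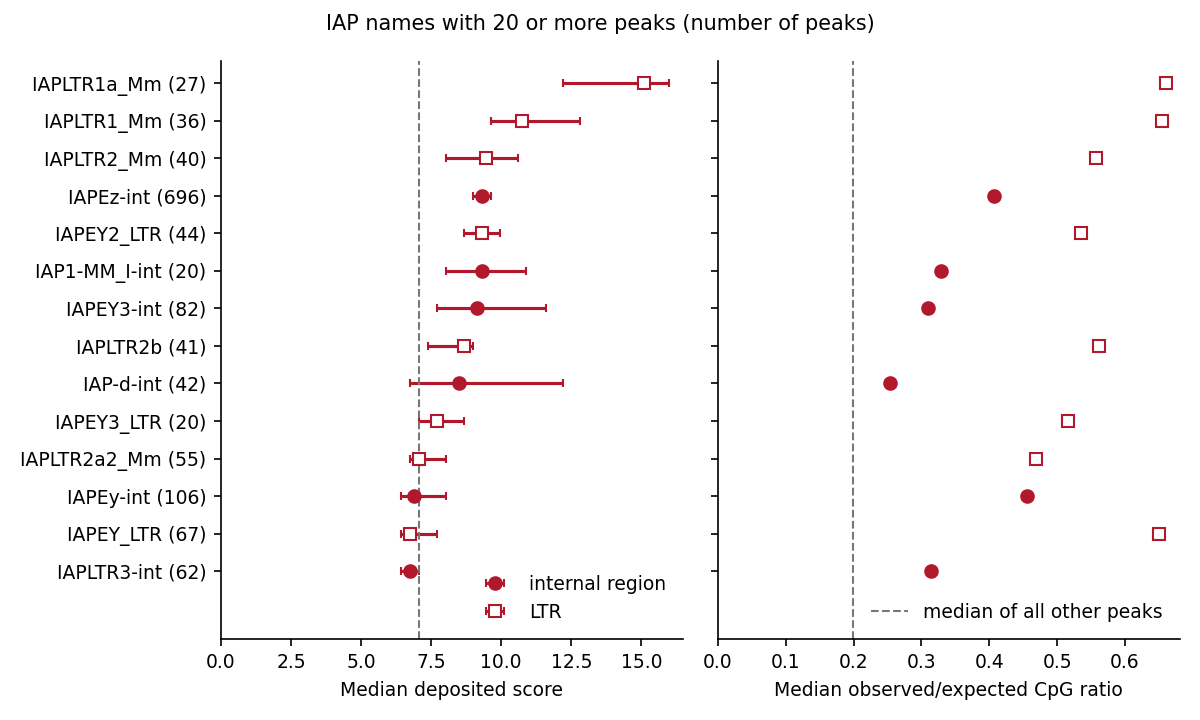
Median deposited score with its 95% interval (left) and median observed to expected CpG ratio (right) for the 14 IAP names with 20 or more peaks, whose numbers stand beside the names. Filled circles are internal regions, open squares LTRs, and dashed lines the medians of all peaks other than IAP (7.06 and 0.199). IAPLTR1a_Mm has the highest median score, 15.1.

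CpG sites, which are lost over time from methylated DNA, were more frequent under IAP peaks. In the 500 bp around the centre, the ratio of observed to expected CpG had a median of 0.434 (0.420 to 0.447) at IAP peaks, 0.253 (0.245 to 0.260) at other ERVK peaks and 0.195 (0.193 to 0.196) at peaks not on ERVK. The median number of CpG sites was 12, 7 and 6 in the same order of sets. The GC content went the other way, with medians of 46.8%, 47.8% and 49.4%. IAP LTRs had a ratio of 0.554 (0.539 to 0.570) and IAP internal regions one of 0.387 (0.375 to 0.398). The ratio was 0.660 at IAPLTR1a_Mm, 0.655 at IAPLTR1_Mm and 0.650 at IAPEY_LTR, while IAP-d-int (0.254) and IAPEY3-int (0.310) were nearer to the other ERVK peaks. RLTR10 and MMERVK10C lay between, with 0.360 (0.351 to 0.373).

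IAP peaks also lay in sequence that occurs many times. Of the words of 150 bases (150-mers, the length of 1 sequenced read) in the 500 bp around a centre, a median of 33.9% (25.4 to 40.2%) occurred once in the genome at IAP peaks, while the median was 100% at other ERVK peaks and at peaks not on ERVK. With words of 100 bases the median at IAP peaks was 19.1% (13.97 to 23.7%). No 150-mer was unique at 532 IAP peaks (36.8%, 34.3 to 39.3%), against 117 other ERVK peaks (3.84%, 3.21 to 4.58%) and 1280 peaks not on ERVK (4.25%). At IAPEz-int the median was 0% and the median 150-mer had 53 copies, whereas at IAPEY3-int, IAPEY2_LTR, IAP-d-int and IAPLTR2b it was 100% unique. Reads with several possible origins were assigned by the authors to the single best one. Where no 150-mer is unique, a single read from the 500 bp around the centre has other possible origins. By such reads alone, the copy that holds a peak is uncertain. The rest of wider peaks and the mates of paired reads were not examined. The median score was 8.02 (7.70 to 8.34) at the 532 IAP peaks with no unique 150-mer, 9.31 (8.99 to 9.63) at 564 with some and 8.99 (8.34 to 9.31) at 350 with only unique ones, and the shares of high-scoring peaks were 41.9%, 54.8% and 50.9% in the same order. Without chromosome Y, which held 149 of the 532, the median was 8.99 (8.34 to 9.63) at 383 IAP peaks with no unique 150-mer, 9.63 (9.31 to 10.6) at 498 with some and 8.99 (8.34 to 9.31) at 339 with only unique ones. The order of the classes with none and with only unique 150-mers thus rested on chromosome Y.

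The half-site of NFI factors, TTGGCA, was searched on both strands of the same 500 bp, since the study links NFI factor Nfix to Setdb1. It was present in 597 of 1446 IAP peaks (41.3%, 38.8 to 43.8%), 957 of 3047 other ERVK peaks (31.4%, 29.8 to 33.1%) and 7660 of 30107 peaks not on ERVK (25.4%, 24.95 to 25.9%). The full palindromic site, TTGGC, 5 bases of any kind and GCCAA, was in 0 of the 1446 IAP peaks, which allows a share of up to 0.207% (3 counts). It was in 0 of the 3047 other ERVK peaks and in 12 of the 30107 peaks not on ERVK (0.0399%). The number of IAP peaks is too small to tell their 0 from that share. The half-site went with the name of the element. It was in 14 of 15 IAPLTR2a peaks (93.3%), 13 of 14 IAPEY5_LTR peaks (92.9%) and 32 of 40 IAPLTR2_Mm peaks (80%), but in 1 of 55 IAPLTR2a2_Mm peaks (1.82%) and 3 of 62 IAPLTR3-int peaks (4.84%). A match to so short a motif is a description of the sequence and not a binding site.

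**Figure D3:**
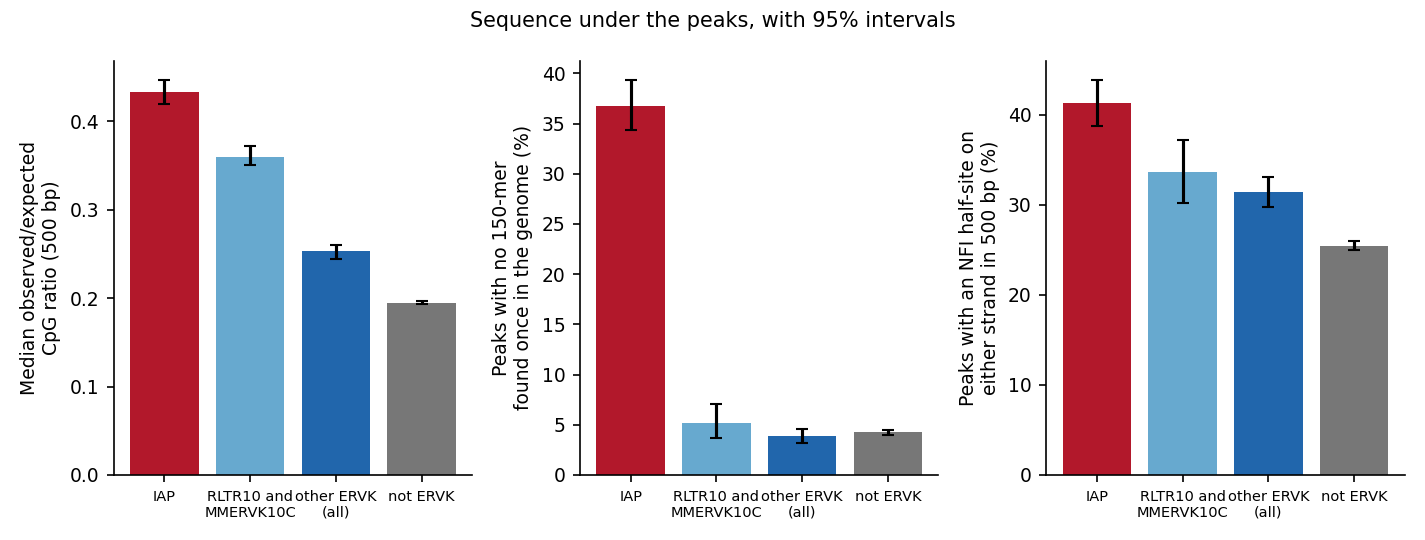
Median observed to expected CpG ratio (left), share of peaks without any 150-mer that occurs once in the genome (middle) and share with an NFI half-site (right) for IAP peaks, RLTR10 and MMERVK10C peaks, all other ERVK peaks (which include RLTR10 and MMERVK10C) and peaks not on ERVK. Bars are 95% intervals, and IAP peaks are highest in all 3 panels, with 0.434, 36.8% and 41.3%.

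To see where on the element the peaks lie, their centres were placed on a reference copy, chr14:84855147-84862259 on the minus strand of GRCm38. It has a 5′ and a 3′ LTR of 340 bp with 100% identity to each other and is 6773 bp long when counted with 1 LTR, from the first base of its 5′ LTR. It has 3 open reading frames of 200 codons or more, at bases 550 to 2322 (590 codons), 2322 to 3098 (258 codons) and 3332 to 5749 (805 codons), which are called frames 1 to 3 here. In an intact element the genes follow each other as gag, pro and pol. Stretches of this copy are printed because the positions below refer to them. The first shows the end of the LTR and the start of the internal region, with the primer binding site in capitals, and in the others capitals mark CpG sites. The second lies where IAP peaks were most frequent. The last is the centre of the IAPEz-int peak in an intron of Cdk5rap1, whose letters can be compared with the second.
Bases 301 to 400, chr14:84861860-84861959, minus strand: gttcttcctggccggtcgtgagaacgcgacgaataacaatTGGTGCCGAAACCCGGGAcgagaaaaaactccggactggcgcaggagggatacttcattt
Bases 5201 to 5400, chr14:84856860-84857059, minus strand: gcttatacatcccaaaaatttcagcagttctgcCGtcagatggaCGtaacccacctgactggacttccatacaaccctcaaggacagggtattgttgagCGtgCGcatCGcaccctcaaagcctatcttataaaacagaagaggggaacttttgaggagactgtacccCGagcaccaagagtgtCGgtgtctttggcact
Cdk5rap1 peak, chr2:154357746-154357865, plus strand: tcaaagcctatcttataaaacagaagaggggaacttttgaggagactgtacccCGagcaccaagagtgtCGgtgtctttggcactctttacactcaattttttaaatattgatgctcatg

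On this copy, 694 IAP peaks (48.0% of those on the main chromosomes) had their centre in a match of at least 85% identity, called a close copy here. The matches of this identity add up to 11.2 Mb of the genome, so the peaks could be counted per Mb of copies at each position. Over the whole element there were 62.1 peaks per Mb (57.6 to 66.9, exact Poisson interval). Frame 3, where pol lies by its order, held 432 of the 694 peaks (62.2%) and had 115 peaks per Mb (105 to 127). Frame 1, where gag lies, had 21 peaks and 8.02 per Mb (4.97 to 12.3). There were 34.2 per Mb in frame 2 (23.7 to 47.9), 43.6 in the LTR (29.2 to 62.5) and 61.1 in the sequence after frame 3 (51.96 to 71.3). Of the 416 IAP peaks with LTR names on the main chromosomes, 191 matched the copy at any identity, with a median of 79.4%. Most of them are thus not counted here, and the values describe close copies and not IAP peaks in general. In all, 85.3% (82.5 to 87.7%) of the 694 peaks on close copies lay at or after the start of frame 3. When the position was instead the distance to an exact primer binding site, which 167 IAP peaks had within 8 kb, the share was 49.1% (41.6 to 56.6%).

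The peaks were gathered in a few narrow stretches, whose limits were chosen after the values were seen. Between bases 5001 and 5600 lay 276 peaks, or 258 per Mb of copies (228 to 290), with a median score of 9.95, and 60.5% of them were high-scoring. Between bases 4001 and 4300 lay 88 peaks, or 203 per Mb (162 to 250). Their median score was 7.06, their highest was 11.2, and 9.09% of them were high-scoring. From base 6301 to the end lay 135 peaks, or 105 per Mb (87.6 to 124), with a median score of 11.2 and 68.1% high-scoring. No peak centre lay between bases 501 and 1000, although 0.789 Mb of copies match there. A count of 0 allows up to 3.80 peaks per Mb in that stretch by the limit of 3 counts. By the exact Poisson interval used for the other stretches it allows up to 4.67. This 0 is no measure of H3K9me3 there, since the list leaves out peaks that mutant BG kept. The authors also required an excess of tags over the surrounding region. Positions are those of peak centres, so a peak centred nearby can reach into the stretch. Each of the 3 stretches with many peaks had peaks on all 21 chromosomes, and with autosomes alone the values were 254, 197 and 103 per Mb.

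Of the 150-mers of the close copies, 17.4% occurred once in the genome over the whole element. The share was 18.6% between bases 5001 and 5600, 10.3% between bases 4001 and 4300 and 23.1% from base 6301 on. It was 22.5% between bases 501 and 1000, where no peak centre lay. A median of 0% of the 150-mers was unique at the peaks between bases 5001 and 5600, and 157 of those 276 peaks had none. The reference copy has 1.41 CpG sites per 100 bp in frame 3, against 3.67 in frame 1 and 5.29 in the LTR. In the stretches with many peaks it has 2 (bases 5001 to 5600), 1.67 (4001 to 4300) and 1.69 (from 6301 on), against 1.60 between bases 501 and 1000. The half-site TTGGCA occurs at bases 1428, 1491, 2177, 4086, 4280, 4666, 4781 and 5393 of the reference copy. Between bases 4001 and 4300, 88 of the 88 peaks had it within their 500 bp, and on the reference copy any such window covers base 4086. It was within the 500 bp of 129 of 276 peaks (46.7%) between bases 5001 and 5600 and 26 of 135 (19.3%) from base 6301 on. The share of IAP peaks with a half-site thus depends on which part of the element they lie on.

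**Figure D4:**
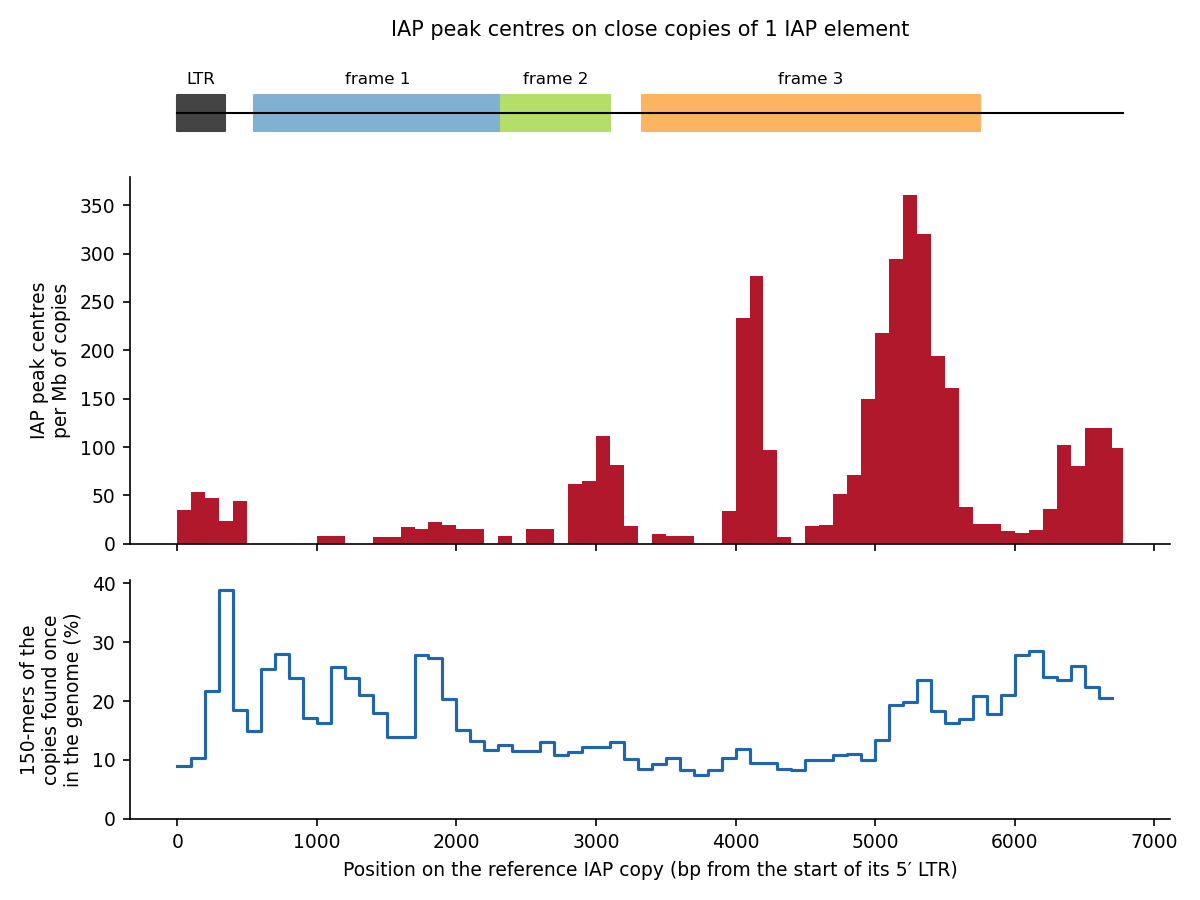
Top, map of the reference IAP copy with its LTR and 3 reading frames. Middle, IAP peak centres per Mb of close copies in bins of 100 bp along the copy. Bottom, share (%) of the 150-mers of the close copies that occur once in the genome. Peak centres gather near bases 4001 to 4300, 5001 to 5600 and from 6301 on. No centre of a listed peak lies from 501 to 1000, where 22.5% of the 150-mers are unique.

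Along the genome, IAP peaks were most frequent on chromosome Y. It had 226 IAP peaks, which is 2.56 per Mb of sequenced bases, against 0.667 per Mb on chromosome X and 0.309 to 0.601 per Mb on the autosomes. Of the 566 peaks on chromosome Y, 39.9% (35.98 to 44.0%) were IAP peaks, against 8.97% (7.49 to 10.7%) on chromosome X and 2.10 to 5.16% on the autosomes. Other elements than elsewhere made up this number. IAPEy-int had 79 of the 226 peaks, IAPLTR3-int 49, IAPEY_LTR 42 and IAPEz-int 22, and 79 of all 106 IAPEy-int peaks and 49 of all 62 IAPLTR3-int peaks were on chromosome Y. Their scores were low, with a median of 6.42 (6.42 to 6.74) on chromosome Y, against 9.31 (8.99 to 9.63) on the autosomes and 9.31 (8.02 to 9.95) on chromosome X. Peaks of chromosome Y that were not on IAP had a median of 6.42 (6.10 to 6.42) as well. No 150-mer was unique at 149 of the 226 IAP peaks (65.9%, 59.5 to 71.8%), and the long arm of this chromosome consists of repeated gene clusters. The part of this repetition in the scores was not tested. Nor was that of the sex of the animals in the number and scores of the peaks on chromosomes X and Y. On each of the 19 autosomes the median score of IAP peaks was above that of other ERVK peaks, with 8.02 to 11.6 at IAP peaks and 6.74 to 7.70 at other ERVK peaks.

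**Figure D5:**
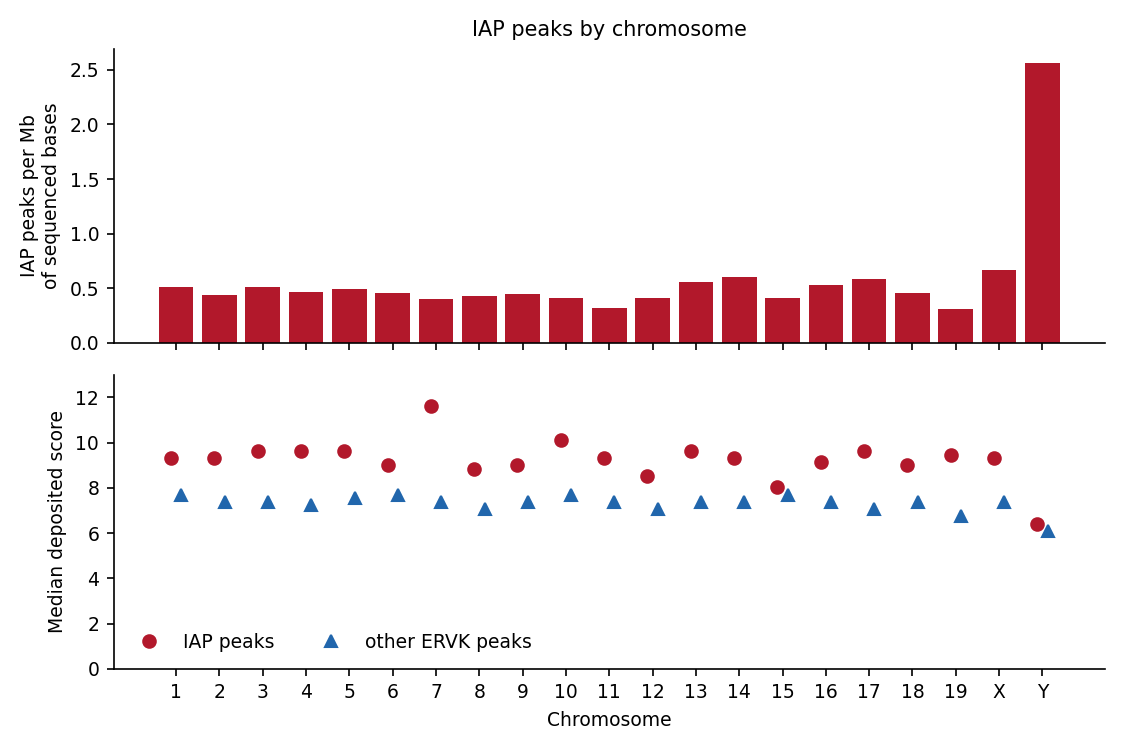
IAP peaks per Mb of sequenced bases (top) and median deposited score of IAP peaks (circles) and other ERVK peaks (triangles) by chromosome (bottom). Chromosome Y has 2.56 IAP peaks per Mb, above the 0.309 to 0.601 of the autosomes, and its median IAP score, 6.42, is the lowest.

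Most IAP peaks lay between genes. The authors' annotation put 1225 of them (84.4%, 82.5 to 86.2%) in intergenic sequence and 223 (15.4%, 13.6 to 17.3%) in introns, and 3 had neither class. The share in introns was 18.2% (16.8 to 19.6%) at other ERVK peaks and 36.7% (36.2 to 37.3%) at peaks not on ERVK. Only 4 of the 226 IAP peaks on chromosome Y were in introns. On the autosomes alone, the shares were 18.99% (16.8 to 21.4%) at IAP peaks, 19.2% (17.8 to 20.7%) at other ERVK peaks and 37.9% (37.3 to 38.4%) at peaks not on ERVK, so that a difference between IAP and other ERVK peaks was not detectable there. The median distance to the nearest transcription start site (TSS) was 108 kb (93.6 to 116) at IAP peaks, 53.2 kb (49.2 to 56.3) at other ERVK peaks and 34.7 kb (34.1 to 35.4) at peaks not on ERVK. On the autosomes alone it was 80.4 kb (74.2 to 90.9) at IAP peaks, 49.9 kb (46.3 to 53.9) at other ERVK peaks and 33.96 kb (33.3 to 34.6) at peaks not on ERVK. Of the IAP peaks, 115 (7.94%, 6.66 to 9.45%) lay within 10 kb of a TSS, against 12.98% (11.8 to 14.2%) of other ERVK peaks and 20.6% of peaks not on ERVK.

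IAP elements in introns were mostly antisense to the gene. Of 178 intronic IAP peaks whose element strand and transcript strand were both known, 142 (79.8%, 73.3 to 85.02%) had the element on the strand opposite to the gene and 36 had it on the same strand. The share was 81.8% (74.7 to 87.3%) for internal regions and 71.4% (54.9 to 83.7%) for LTRs, and 79.1% (70.6 to 85.6%) for high-scoring peaks. The median score was 9.79 at antisense and 10.1 at sense elements. The 178 peaks lay in 156 genes, of which 124 had antisense elements only, 29 had sense elements only and 3 had both. An antisense excess of IAP elements in introns is known from the mouse genome itself, and it was not compared here with elements that have no peak.

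Of the 10 IAP peaks with the highest scores, 8 were on IAPEz-int and 2 on IAPEY3-int, and 1 lay within 10 kb of a TSS. The peak with the highest score, 47.5, spanned 3055 bp of an IAPEz-int element at chr13:88773594-88776649, 46.4 kb from the TSS of Edil3, an extracellular matrix protein with EGF-like repeats. Only 0.170% of all peaks in the list had a score as high or higher. An IAPEY3-int peak with a score of 44.0 lay 5.90 kb from the TSS of Crkl, which encodes a signalling adaptor protein. Another IAPEY3-int peak, with a score of 39.5, lay 22.5 kb from Vmn1r16, a vomeronasal receptor gene. At these peaks 95.4% (Crkl) and 92.0% (Vmn1r16) of the 150-mers were unique. The other 7 of the 10 highest were IAPEz-int peaks, with scores of 34.3 to 38.2. Their nearest genes were Serpinb9g, a gene of the serine protease inhibitor family, Gpr50, an orphan receptor related to the melatonin receptors, Tmco5, Npy6r, a neuropeptide Y receptor gene, Zfp958, Acot10 and Hs6st3. At Gpr50, where the score was 36.9, no 150-mer was unique. The peak at Hs6st3, a heparan sulfate 6-O-sulfotransferase, had a score of 34.3 and was the 1 among the 10 that lay in an intron, antisense to the gene.

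The 10 IAP peaks nearest to a TSS lay 1.21 to 3.05 kb from it. The nearest lay 1.21 kb from the TSS of Gm13710, in its first intron, with a score of 6.74, and no 150-mer there was unique. A peak on an IAPLTR2_Mm element, 1.27 kb from an Efcab6 TSS and in intron 20 of 31 of that gene, had a score of 6.42 and only unique 150-mers. The next were at 1700112J05Rik (1.96 kb), Pm20d2 (2 kb), the olfactory receptor genes Olfr194 (2.30 kb), Olfr898 (2.52 kb) and Olfr514 (2.69 kb), H2al1k (2.75 kb), Vmn2r-ps159 (2.94 kb) and Snord116 (3.05 kb), a cluster of small nucleolar RNA genes, where the peak lay in intron 82 of 171 of the host transcript Snhg14 and on the same strand. Scores of these 10 peaks ran from 5.13 at Vmn2r-ps159 to 12.2 at Olfr194.

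IAP peaks were assigned to 985 genes as the nearest, of which 772 had 1 such peak, 179 had 2 or 3 and 34 had 4 or more. Of these 34, 20 were on chromosome Y. Gm20736 had 31 IAP peaks among its 61 peaks, up to 2189 kb away, Gm20871 had 19, Gm20738 and Gm20854 had 16 each, Gm20806 and Gm20823 15 each, and Ssty1, a spermatid gene of the long arm, had 14. The others on this chromosome were Gm20822, Gm20868, Ssty2, Gm20826, G530011O06Rik, Sly, Gm20809, Gm20747, Gm20858, Rbmy, Gm20865, Gm20815 and Gm20852, with 4 to 13 each. Most of these belong to families of near-identical copies, so a peak cannot be tied to a single one of them.

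Outside chromosome Y, Pla2g4a, which encodes a cytosolic phospholipase A2, had most IAP peaks, 8, and all of them lay 335.8 to 1648 kb from its TSS. The scores of the 8 peaks were 12.5, 25.4, 5.78, 7.38, 7.06, 8.02, 10.3 and 18.3 in the order of the chromosome. The first 3 of these lay side by side, 1 on an IAPLTR1_Mm LTR and 2 on IAPEz-int. Ncam2, a neural cell adhesion gene, had 5 IAP peaks at 182 to 1388 kb with scores of 6.74 to 15.4. A330008L17Rik also had 5, with scores of 5.78 to 18.3, and 4930595M18Rik had 5, of which an IAPLTR1_Mm peak reached 33.7. With 4 peaks each followed Slitrk5, a transmembrane protein of synapses, Dsel, 4931408C20Rik, Cox7c, Cldn34c4, Ghitm, 4932411N23Rik, Cntnap5a, Gm20268 and Ppp6c. Of these 14 genes, Cntnap5a alone had an IAP peak in an intron, intron 1 of 23, with a score of 12.8.

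Gene lists of the processes that the study is about were compared by the share of peaks assigned to them. Of the 85 genes of ECM-receptor interaction, 57 had a peak of some kind, and 1 had an IAP peak. This was Reln, which encodes the secreted guide of neuronal migration reelin. Its IAPEz-int peak at chr5:22203948-22205174, in intron 3 of 63 and antisense to the gene, had a score of 17.0. No 150-mer was unique in the 500 bp around its centre. The list's share was 0.0689% of IAP peaks (0.0122 to 0.389%), 0.196% of other ERVK peaks and 0.414% of peaks not on ERVK. Among 73 genes of axon guidance and neuronal migration, 6 had a total of 9 IAP peaks (0.6203% of IAP peaks, 0.327 to 1.17%), against 0.654% of other ERVK peaks and 0.597% of peaks not on ERVK. Sema3d, a secreted semaphorin, had 2 of them in intron 7 of 17, both antisense, with scores of 19.9 and 12.5. Epha6, an Eph receptor, had 3 at 279 to 707 kb with scores of 7.06, 6.42 and 14.4, and Efna5, an ephrin, had 1 at 304 kb with a score of 7.38.

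In the list of 37 genes of BG and astroglia, 3 had 5 IAP peaks (0.345%, 0.147 to 0.804%), against 0.229% of other ERVK peaks and 0.156% of peaks not on ERVK. Gria4, an AMPA receptor subunit present in BG, had a peak on an IAP1-MM_LTR element at 63.7 kb with a score of 10.6. Ptprz1, a receptor tyrosine phosphatase of astroglia, had 1 at 192 kb with a score of 7.38, and Cdh20, a cadherin, had 3 at 1447 to 1583 kb with scores of 6.74 to 8.66. In the granule neuron lineage, Atoh1, the transcription factor that starts this lineage, and Zic1 had 1 IAP peak each, at 573 and 507 kb, which is 0.138% of IAP peaks, against 0.262% of other ERVK peaks and 0.182% of peaks not on ERVK. None of the 28 genes of H3K9 methylation and silencing had an IAP peak, which allows a share of up to 0.207% (3 counts), against 3 other ERVK peaks (0.0982%) and 27 peaks not on ERVK (0.0895%). The number of IAP peaks is too small to tell this 0 from those shares.

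Of 4 genes known for alleles with an IAP insertion in mice, 2 had a peak and 1 an IAP peak. This was Cdk5rap1, where an IAPEz-int element carried by C57BL/6 mice is known to differ in DNA methylation between genetically identical animals. The peak at chr2:154357014-154358597, in intron 6 of 13 and antisense to the gene, had a score of 28.6, which 0.571% of all peaks reached. Its centre matched base 5378 of the reference copy with 98.9% identity, within the stretch that had most peaks. In the 500 bp around this centre no 150-mer was unique, with a median of 217 copies. A single read of 150 bases from there thus has other possible origins. The rest of the peak and the mates of paired reads were not examined.

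Large gene families were, in number, the nearest to more IAP peaks than these shorter lists. Olfactory receptor genes were the nearest to 28 (1.93%, 1.34 to 2.77%), against 1.90% of other ERVK peaks and 0.985% of peaks not on ERVK. Olfr368, Olfr161, Olfr15 and Olfr857 had scores of up to 12.8, 9.95, 31.5 and 23.7. Vomeronasal receptor genes were the nearest to 22 (1.52%, 1.00 to 2.29%), against 2.32% of other ERVK peaks and 1.16% of peaks not on ERVK. Of these, Vmn2r98 had 3 IAP peaks, Vmn1r16 had 2, and Vmn2r35 and Vmn1r63 had 1 each, with scores of 19.3 and 17.7. Zinc finger genes named Zfp were the nearest to 19 (1.31%, 0.840 to 2.04%), against 2.42% of other ERVK peaks and 1.91% of peaks not on ERVK. Zfp958, Zfp954 and Zfp24 had 2 each, with scores of up to 35.9, 16 and 12.2, and Zfp964 had 1, on an IAPEY_LTR, with a score of 31.1.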

How the data were processed

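The authors aligned H3K9me3 ChIP-seq reads of P10 BG to mm10 with Bowtie2 (2.2.8 in the submitters' processing notes), kept 1 best location for a read that matches several places and 1 tag per position, and called peaks with HOMER (4.10.1 in the notes). The authors set the tag threshold by a false discovery rate and required an excess of tags over the surrounding region. The deposited score is the authors' peak score. Its scale, the part of the control libraries in the peak call and the way libraries were merged are not given in the sources used here. The list has no depth per sample.

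Sequence came from GRCm38.p6 (RefSeq), the same build as mm10, for the 34600 of 34673 peaks on chromosomes 1 to 19, X and Y. Per peak, the 500 bp around the centre gave the observed to expected CpG ratio, the half-site TTGGCA and the 150-mers that occur once in the whole assembly. The reference copy was chosen among copies with an exact primer binding site (18 bases, the reverse complement of the 3′ end shared by 6 of 7 phenylalanine tRNA genes plus CCA), a pair of LTRs of 90% identity or more, 2 to 10 kb apart, and the most common length. As RLTR10 and MMERVK10C share this site, an IAP peak inside was required too (115 copies), a choice made after seeing the data. Peaks were placed by blastn 2.17.0 (e-value 1e-10). Intronic IAP peaks took their strand from this match. Statistics used Python 3.11.15, numpy 2.4.6, pandas 2.3.3, scipy 1.17.1 and numba 0.67.0, and the scripts were tested on simulated data.

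No test was run, since the list has no value per library. The genes named are the nearest genes (by the authors) of the 10 IAP peaks with the highest score and of the 10 closest to a TSS, genes with 4 or more IAP peaks, and up to 4 members of each of 9 gene lists. The members and lists were chosen with earlier results of these data known. The host gene of 1 IAP peak and 1 stretch of sequence are not reported here.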

Additional observations from a re-analysis of the deposited data

How the results depend on the processing

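With 40 alternatives over 9 results, 22 values lay within the 95% interval of the value given above and 18 did not. With peaks at or above the list's median score, IAP made up 5.86% of the list and the CpG ratio was 0.448. With 1 peak for each run of IAP peaks less than 10 kb apart, the share was 3.73%. Only IAP peaks were joined and the total of the list was kept, so this value, which is among the 18, could only fall. With peaks of 500 bp alone, the share was 3.25% and the median score 7.06. The share of high-scoring peaks was then 25.5%, against 13.04% at other ERVK peaks of this width. The share at or after the start of frame 3 was 79.4%. Without chromosomes X and Y, a setting chosen after seeing the data, these were 3.39% of peaks, a median score of 9.31, 55.2% high-scoring, 18.996% in introns, 42.7% of unique 150-mers and 44.6% with a half-site. With 100-mers, a median of 19.1% was unique. The half-site was in 47.6% of whole IAP peaks, against 28.3% of whole other peaks, and the full site in 0%. With the distance to an exact primer binding site, which 167 IAP peaks had within 8 kb, 49.1% lay at or after the start of frame 3, and with the strand from that site 71.4% of 35 intronic elements were antisense. The causes were not tested. No paired analysis was possible because the list has no column for a single library.

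The list leaves out peaks that mutant BG kept, so the absence of a listed peak from an IAP copy is no measure of H3K9me3 there, and the level in mutant BG is unknown. Depth per library and the spread between replicates were not available for any value. Scores fall in steps of 0.321. At the many peaks without unique 150-mers around the centre, the position of a peak can depend on how 1 location was chosen for each read.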

Other observations

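When IAP peaks less than 10 kb apart were joined, the 1451 peaks formed 1294 runs, of which 1155 held 1 peak, 123 held 2 and 16 held 3 or more, with at most 4. In all, 296 IAP peaks (20.4%) shared a run with another, and 31 of the runs with 2 or more were on chromosome Y.

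Across the 1446 IAP peaks on the main chromosomes, Spearman's rho of the score was 0.713 with the width of the peak, 0.148 with the CpG ratio and 0.0772 with the share of unique 150-mers. These are descriptions across peaks that share libraries and, for copies of 1 element, sequence.

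Per Mb of close copies of the reference element, there were 61.0 IAP peaks on the autosomes, 68.6 on chromosome X and 86.7 on chromosome Y, where only 0.254 Mb of such copies and 22 such peaks were found. Of the 223 IAP peaks in introns, 58 lay in the first intron, and this was not counted for other peaks. Gabrg3, Cfap97d2 and Snhg14, named after their values were seen, had intronic IAP peaks with elements of both orientations.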
